A study of Mus musculus with 10 samples.

Results

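Vps34, the product of Pik3c3, is the class III phosphatidylinositol 3-kinase, and its loss in regulatory T cells (Tregs) of the spleen is described here from the 6 spleen libraries of a series of 10. To ask how Vps34 shapes the chromatin of Tregs, accessibility was measured by ATAC-seq, which reads out open DNA through the sites where Tn5 transposase can cut and tag it. CD4+Foxp3-YFP+TCRb+ cells had been sorted from spleen and lung of 10-day-old C57BL/6 mice. Libraries were assigned by their genotype label, which gave 2 control and 4 Vps34-deficient spleen libraries. The deficient mice were Foxp3-Cre Pik3c3 fl/fl. The controls also carried Foxp3-Cre, with Pik3c3 either wild type or with a single floxed copy, so both groups share the Cre and the YFP reporter and differ in whether an intact Pik3c3 copy remains. Cre is expressed from Foxp3, so deletion follows Foxp3 expression, and how complete it was in the sorted cells cannot be read from these counts. The labels do not say whether a library is 1 mouse, so p-values measure the spread between libraries. In the study's methods the spleen numbers are swapped, with 4 control and 2 deficient samples, and the labels and column names were followed.

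Vps34 makes phosphatidylinositol 3-phosphate on endosomes and autophagosomes, in complexes with Becn1, Pik3r4 and either Atg14 or Uvrag. Tregs suppress immune responses and are held in a spectrum of states. Resting or central Tregs recirculate through lymphoid organs with the help of Ccr7 and express Bach2, Tcf7 and Bcl2, whereas effector Tregs acquire Klrg1, Tigit, Il10 and the IL-33 receptor encoded by Il1rl1. Factors of the AP-1 family, among them Batf, bind many of the enhancers that open in effector cells, and Runx factors bind with Foxp3 at many Treg enhancers.

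The windows that carry the comparison are shown first, as 300 bases around the centre of the 3 lower peaks with the smallest p, of the lower peak with the smallest p in or within 10 kb of Il10, Pparg and Klrg1, and of 1 of the 10 leading peaks that gained accessibility. The sequences are those of GRCm38, forward strand, 5′ to 3′. Capitals mark matches to the AP-1 motif TGANTCA, which reads the same on both strands, and to the RUNX motif TGTGGTT on either strand, and no match of the one overlapped a match of the other. The Jag1 window (chr2:137224612-137224911) and the Pparg window (chr6:115432532-115432831) each held 1 AP-1 and 1 RUNX match, the Il10 window (chr1:131021515-131021814) held 1 AP-1 match, and the Tg window (chr15:66785396-66785695) held 1 RUNX match. The windows of Prg2 (chr2:84964143-84964442) and Klrg1 (chr6:122262642-122262941) held neither. The window that gained accessibility, near Grin2a (chr16:9751691-9751990), held 1 AP-1 match, and it is wider than its peak, which spans 212 bases.
Jag1: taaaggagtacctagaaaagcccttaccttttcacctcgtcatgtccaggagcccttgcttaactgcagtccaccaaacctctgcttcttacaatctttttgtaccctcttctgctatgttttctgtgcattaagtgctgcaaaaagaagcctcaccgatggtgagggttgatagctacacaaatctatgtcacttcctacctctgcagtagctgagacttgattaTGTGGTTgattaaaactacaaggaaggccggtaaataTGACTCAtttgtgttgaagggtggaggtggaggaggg
Tg: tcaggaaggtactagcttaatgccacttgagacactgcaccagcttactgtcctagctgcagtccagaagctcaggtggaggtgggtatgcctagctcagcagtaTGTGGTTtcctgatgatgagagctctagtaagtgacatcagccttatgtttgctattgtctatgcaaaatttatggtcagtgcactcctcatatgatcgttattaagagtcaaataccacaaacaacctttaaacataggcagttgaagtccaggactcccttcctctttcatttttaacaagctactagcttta
Prg2: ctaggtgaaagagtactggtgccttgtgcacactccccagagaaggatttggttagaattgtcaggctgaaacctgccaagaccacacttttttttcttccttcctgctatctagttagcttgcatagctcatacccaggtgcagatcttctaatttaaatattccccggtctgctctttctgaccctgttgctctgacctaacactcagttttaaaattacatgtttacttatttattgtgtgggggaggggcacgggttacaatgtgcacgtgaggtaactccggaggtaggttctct
Il10: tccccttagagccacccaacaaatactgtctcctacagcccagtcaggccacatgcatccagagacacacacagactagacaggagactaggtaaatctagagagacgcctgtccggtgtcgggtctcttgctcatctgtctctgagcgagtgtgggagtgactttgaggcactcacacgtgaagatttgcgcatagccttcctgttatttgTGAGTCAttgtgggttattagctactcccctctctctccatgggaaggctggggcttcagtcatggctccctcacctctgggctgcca
Pparg: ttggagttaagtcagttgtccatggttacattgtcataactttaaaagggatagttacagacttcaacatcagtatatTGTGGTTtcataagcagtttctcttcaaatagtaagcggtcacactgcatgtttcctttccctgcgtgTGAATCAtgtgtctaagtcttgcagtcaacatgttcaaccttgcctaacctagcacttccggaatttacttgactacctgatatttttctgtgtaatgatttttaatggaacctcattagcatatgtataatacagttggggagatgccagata
Klrg1: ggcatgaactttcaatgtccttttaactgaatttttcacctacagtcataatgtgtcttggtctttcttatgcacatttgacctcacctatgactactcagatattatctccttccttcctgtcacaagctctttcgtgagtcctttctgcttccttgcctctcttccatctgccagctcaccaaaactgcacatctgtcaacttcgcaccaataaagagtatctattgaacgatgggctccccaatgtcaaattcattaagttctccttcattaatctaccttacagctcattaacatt
Grin2a: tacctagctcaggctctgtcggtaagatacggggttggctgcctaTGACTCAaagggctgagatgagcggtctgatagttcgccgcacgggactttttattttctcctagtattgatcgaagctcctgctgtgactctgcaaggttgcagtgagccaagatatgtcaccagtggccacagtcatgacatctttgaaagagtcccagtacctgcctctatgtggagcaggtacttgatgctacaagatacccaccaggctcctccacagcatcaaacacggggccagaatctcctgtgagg

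Across the genome, accessibility fell at 1798 peaks and rose at 1370 in Vps34-deficient spleen Tregs. Of 97385 peaks in the table, 94742 held enough counts to be tested. A peak was called at an adjusted p below 0.05 and a log2 fold change beyond 0.5 in size, using edgeR's quasi-likelihood test and the Benjamini-Hochberg adjustment, and the calls made up 1.9% of tested peaks lower and 1.45% higher. Levels are given as CPM, which is counts scaled to a common library size after adjustment by the trimmed mean of M-values (TMM). The decreases were larger than the increases. The median log2 fold change was -1.16 over lower peaks, from a median of 6.43 CPM in controls to 2.89 CPM, and 0.89 over higher peaks, from 3.88 to 7.26 CPM. Changes of more than 2-fold made up 1072 of the lower and 551 of the higher peaks, and changes of more than 4-fold 243 and 137. In 49 of the higher peaks each control library held at most 3 counts, so that their fitted folds are no measure of size. All 4 deficient libraries lay below both controls at 99.6% of lower peaks, and above both at 88.5% of higher peaks. Over all tested peaks the groups separated in this way at 13.5% with the deficient libraries lower and at 12.8% with them higher. With 2 against 4 libraries an exact permutation test of a single peak cannot reach 0.05, so the calls rest on the model fitted across all peaks. A bulk assay cannot tell fewer cells of a given state from less accessibility per cell.

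The 6 libraries held 13932355 to 22439699 counts, with a median of 46 to 72 per peak, and the first principal component (36.3% of the variance) separated the genotypes, with deficient library 3 closest to the controls. Peaks near the genes of Tregs and T cells were open in every library. The 5 Treg marker genes held 1180 and 1290 CPM in summed peaks in controls and 1110 to 1270 CPM in deficient libraries. Of their 105 peaks, 4 were called lower, at Ctla4 and Ikzf2, and 1 higher, at Ikzf2. Over all tested peaks 1.9% were lower and 1.45% higher, so the lower share of these peaks lay above that of all. Peaks near 8 B cell, 10 myeloid, 7 CD8 T and NK and 8 erythroid marker genes differed little in sum (237 to 238 against 235 to 248 CPM for B cells, 215 to 242 against 213 to 259 CPM for myeloid cells, 101 to 117 against 106 to 127 CPM for CD8 T and NK cells, and 291 to 293 against 265 to 289 CPM for erythroid cells). The myeloid markers with a promoter peak, Itgam and S100a8, summed there to 2.6 to 2.8 CPM in controls against 3.45 to 4.9 CPM in deficient libraries. Every deficient library lay above both controls at the promoters of Pax5 (0.361 and 0.421 against 0.49 to 0.972 CPM), Blnk (0.632 and 0.562 against 0.715 to 1.25 CPM) and Gata1 (3.7 and 4.21 against 4.58 to 6.86 CPM). None of these promoters lay below both controls in every deficient library, and 12.8% of all tested peaks separated with the deficient libraries higher. Ms4a1, Lyz2, Adgre1, S100a9 and Ncr1 had no tested peak, and Cd79a and Csf1r were among those with none at the promoter. The tested peaks near genes of other lineages were 44 for B cells, 24 for myeloid cells, 20 for CD8 T and NK cells and 28 for erythroid cells. Among them 1 was called higher, near Cd68, and 1 lower, near Eomes. Both shares lay below the 1.45% higher and 1.9% lower of all tested peaks, so these calls are no result about the lineages. Signal on chromosome Y was high in control 1 and deficient 2 and 4 and low in the other 3, so both groups hold both kinds of library.

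**Figure D1:**
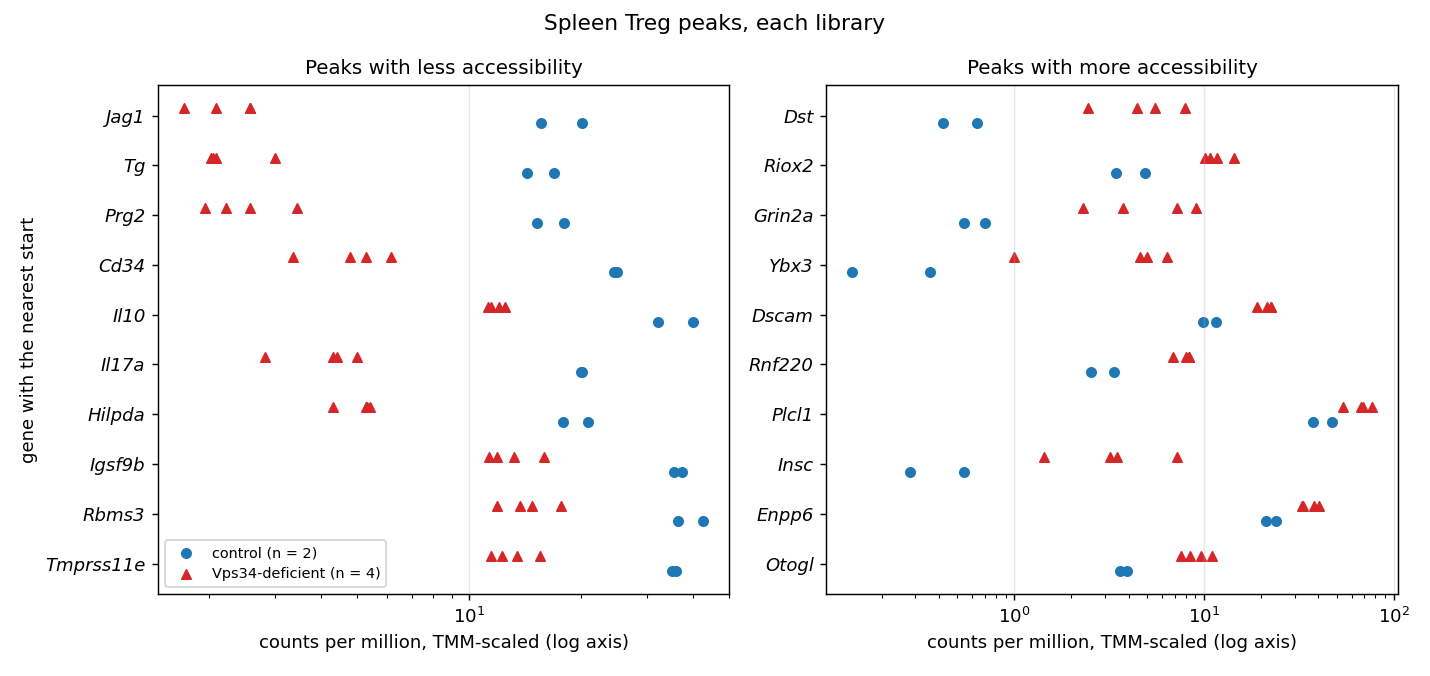
Level of each spleen library (CPM, log axis) at the 10 peaks with the smallest p in each direction, named by the gene with the nearest start. Circles are the 2 control libraries and triangles the 4 Vps34-deficient libraries, and peaks were picked among those whose groups do not overlap, so the gap in each row follows from the choice.

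Leading peaks are ordered by p, not by the size of the change. The lower peak with the smallest p lay 108 kb from the start of Jag1, which encodes a Notch ligand (chr2:137224453-137225071, intergenic). This peak held 15.6 and 20.1 CPM in the controls against 2.08, 1.71, 2.57 and 2.57 CPM in the deficient libraries. The lowest control was above every deficient library by a wide margin, and the log2 fold change was -2.98 (SE 0.194; adjusted p = 1.06e-10 by edgeR's quasi-likelihood test). An intronic peak 13.2 kb from a start of Tg, the gene of thyroglobulin, went from 14.3 and 16.9 CPM to 2.08, 2.02, 2.04 and 3.0 CPM. Near Prg2, the gene of eosinophil major basic protein, a peak went from 15.2 and 18 CPM to 1.94, 3.43, 2.21 and 2.57 CPM. The names Tg and Prg2 give only the nearest start, and nothing here ties these peaks to either gene. A peak 56.5 kb from Cd34, the gene of a sialomucin of progenitor cells, fell by 2.36 on the log2 scale, from 24.5 and 25.0 CPM to 3.36 to 6.15 CPM.

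Cytokine genes were among the leading decreases. An intergenic peak 16.5 kb upstream of Il10, the gene of a suppressive cytokine of effector Tregs (chr1:131002986-131003793), held 32.1 and 40.0 CPM in controls against 12.5, 11.4, 12 and 11.2 CPM in deficient libraries. The deficient libraries were nearly equal to each other there, and the log2 fold change was -1.61 (SE 0.125; adjusted p = 1.77e-09 by edgeR's quasi-likelihood test). A peak 13.2 kb from Il17a, which encodes the defining cytokine of Th17 cells (chr1:20743771-20744345), held 19.9 and 20.1 CPM against 5.0, 4.41, 2.83 and 4.29 CPM. Its log2 fold change was -2.30 (SE 0.18). Hilpda, which encodes a lipid droplet protein induced by hypoxia, had an intergenic peak at 26.7 kb with 17.9 and 20.9 CPM in controls against 4.29 to 5.41 CPM in deficient libraries. The other 3 of the 10 leading decreases were nearest to Igsf9b, at its start, to Rbms3, which encodes an RNA-binding protein, in an intron, and to Tmprss11e, which encodes a serine protease, in an intron. Their log2 fold changes were between -1.43 and -1.48. All 10 of these peaks remained called when each of the 6 libraries was left out in turn.

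Several of the leading increases began from low levels. At an intronic peak 14.9 kb from a start of Dst, which encodes the cytoskeletal linker dystonin, the controls held 0.632 and 0.421 CPM and the deficient libraries 4.44, 5.51, 7.96 and 2.43 CPM. The deficient libraries were all above the controls but spread among themselves, and the log2 fold change was 3.23 (SE 0.418; adjusted p = 1.18e-05 by edgeR's quasi-likelihood test). Grin2a, which encodes an NMDA receptor subunit, Ybx3, which encodes a Y-box protein, and Insc, which encodes a regulator of spindle orientation, were nearest to peaks of the same kind. These held 0.14 to 0.702 CPM in controls, and deficient library 3 was the highest and deficient library 4 the lowest at each. The Ybx3 peak had 4.58, 5.02, 6.37 and 1.0 CPM in the deficient libraries.

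Other leading increases were smaller and tighter. In an untranslated exon 3.94 kb from a start of Riox2, the gene of a ribosomal oxygenase (chr16:59475851-59476166), the level went from 4.87 and 3.44 CPM to 14.3, 11.7, 10.1 and 10.7 CPM, a log2 fold change of 1.47 (SE 0.202). An intergenic peak nearest to Dscam, which encodes a cell adhesion molecule, went from 11.6 and 9.83 CPM to 22.6, 21.4, 19.1 and 22.6 CPM. At Plcl1, which encodes a phospholipase C-like protein without catalytic activity, an intronic peak went from 37.4 and 47.2 CPM to 76.6, 69.1, 54.0 and 66.8 CPM. It was the only one of the 10 that lost its call when a library was left out. Rnf220, Enpp6 and Otogl were nearest to the remaining 3, with log2 fold changes of 1.40, 0.68 and 1.28.

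Higher and lower peaks differed in kind. Peaks of up to 250 bases made up 28.2% of tested peaks, 62.9% of higher peaks and 5.62% of lower peaks, and the median width was 213 bases for higher peaks and 421 for lower peaks, against 333 for all. The limit of 250 bases was chosen after these widths were seen. Of the leading increases, the Dst, Grin2a, Ybx3, Insc, Plcl1 and Otogl peaks (210 to 230 bases) lie under it. So do the Fos and Cxcr5 peaks named below (210 and 213 bases). Over all tested peaks of up to 250 bases the median log2 fold change was 0.38, and over wider peaks it was -0.04. These narrow peaks held 5.49% and 6.45% of the counts in the controls and 8.4%, 7.75%, 6.61% and 8.37% in the deficient libraries. The share was thus higher in every deficient library than in either control, with deficient library 3 nearest to the controls, and its cause was not tested. When narrow and wider peaks were scaled separately, the median of narrow peaks was 0.05, and 752 peaks were called higher and 1813 lower. Of the first calls, 611 of the 1370 higher and 1533 of the 1798 lower peaks were called again. Among narrow peaks, 103 were then called higher, against 862 without this scaling, and 381 lower, against 101. The positions and motifs below are those of the calls without it. A fit on peaks over 250 bases alone called 718 higher and 1498 lower.

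The library that was left out also moved the higher count. It was 180 without control 1, 763 without deficient 1, 712 without deficient 2, 691 without deficient 4 and 2396 without deficient 3, which was also the lowest of the 4 deficient libraries at 65.7% of higher peaks. The lower count was 781 without control 1, 765 without control 2 and 1348 to 1663 without a deficient library. In every one of these fits, 434 lower peaks (24.1%) and 36 higher peaks (2.63%) remained called. The share of lower peaks among the calls, 56.8%, changed side with the scaling. It was 47.7% with library size scaling, under which 1786 peaks were called higher and 1627 lower, and 84.2% at an adjusted p below 0.01 and a fold change above 2, where 649 peaks were lower and 122 higher.

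Few of the calls lay at promoters. Peaks within 1 kb of the start of a protein-coding gene were 16.4% of tested peaks, 4.9% of lower and 3.14% of higher peaks. Between 10 and 100 kb from a start lay 59.7% of lower peaks against 48.8% of all. Beyond 100 kb lay 30.3% of higher peaks, against 15.9% of all and 15.5% of lower peaks. Introns held 51.2% of lower and 44.7% of higher peaks, and 46.7% of all.

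**Figure D2:**
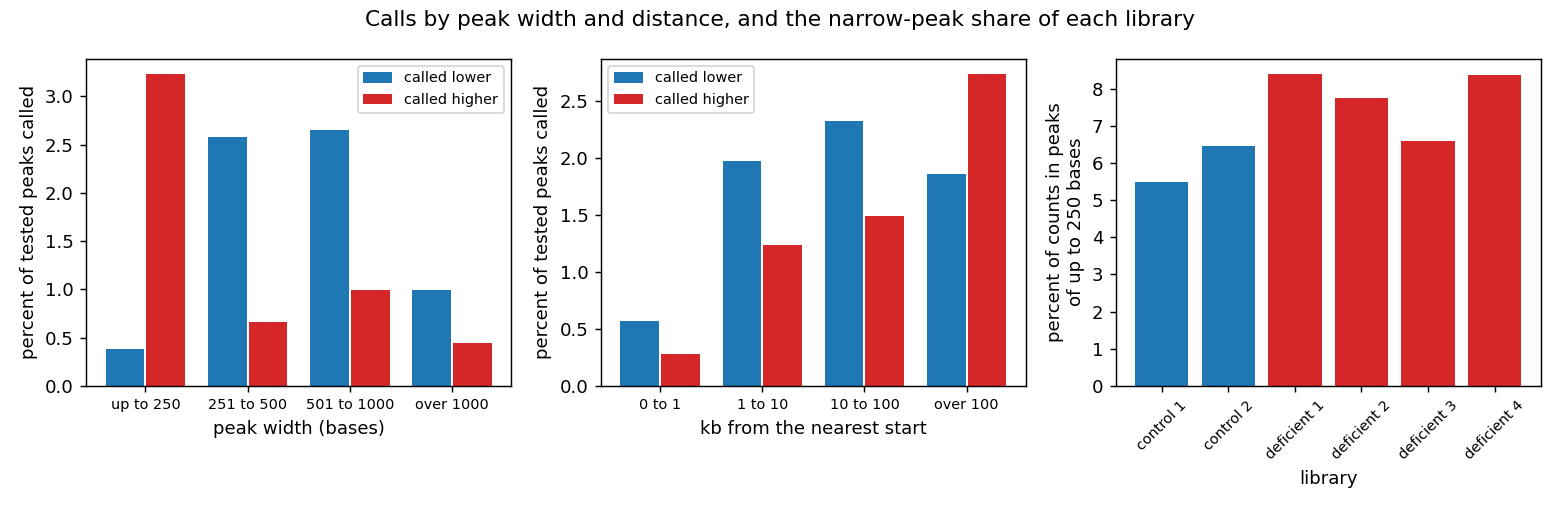
Percent of tested peaks called lower or higher by peak width in bases and by distance in kb from the nearest protein-coding start, and the percent of each library's counts that lay in peaks of up to 250 bases. In the narrowest class 3.23% of peaks were higher and 0.379% lower, and the narrow-peak share was 5.49% and 6.45% in controls and 6.61% to 8.4% in deficient libraries.

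Motif shares are given for lower, higher and all peaks, as a description of sequence and not of binding. Windows of 300 bases around the peak centre were searched, and they run past the peak at 14.5% of lower, 65.8% of higher and 41.5% of all peaks. An AP-1 match lay in the window of 30.0% of lower peaks, 15.3% of higher peaks and 12.9% of all tested peaks. The share of peaks called lower was 1.53% with no match, 4.0% with 1, 7.6% with 2 and 9.93% with 3 or more, whereas the share called higher went from 1.41% to 2.13%. Away from promoters the AP-1 shares were 30.4% of lower, 15.4% of higher and 14.5% of all peaks. The RUNX motif TGTGGTT, searched on both strands like the rest, was in 19.1% of lower, 9.12% of higher and 10.8% of all peaks. The forkhead motif TGTTTAC, a site of Foxp3 relatives such as Foxo1, was in 8.24% of lower, 3.28% of higher and 4.31% of all peaks, and the KLF motif GGGTGTGG in 5.79%, 2.85% and 3.95%. Over peaks of at least 300 bases, which the window does not exceed, AP-1 matches were in 31.4% of lower, 21.2% of higher and 13.4% of all peaks, and RUNX matches in 18.9%, 13.7% and 11.7%, so that the RUNX share of higher peaks lay above that of all peaks there and below it over every width.

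Higher peaks had other motifs above the share of all peaks. The NF-kB motif GGGACTTTC was in 1.75% of higher, 0.445% of lower and 0.639% of all peaks, the Nr4a motif AAAGGTCA in 3.8%, 2.12% and 2.24%, the STAT motif TTCNNNGAA in 12.1%, 7.13% and 9.31%, and the TCF and LEF motif CTTTGAA in 9.85%, 6.74% and 7.72%. The ETS motif CCGGAAG, frequent at promoters, was in 1.17% of higher and 4.4% of lower peaks against 4.53% of all, and away from promoters in 1.13% and 4.45% against 2.75%. The CTCF core AGGGGGCGC was in 0.365% and 0.167% against 1.35%. Higher peaks had a median GC content of 45.2%, lower peaks 47.7% and all peaks 48.7%, and the part of base composition in these shares was not tested.

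**Figure D3:**
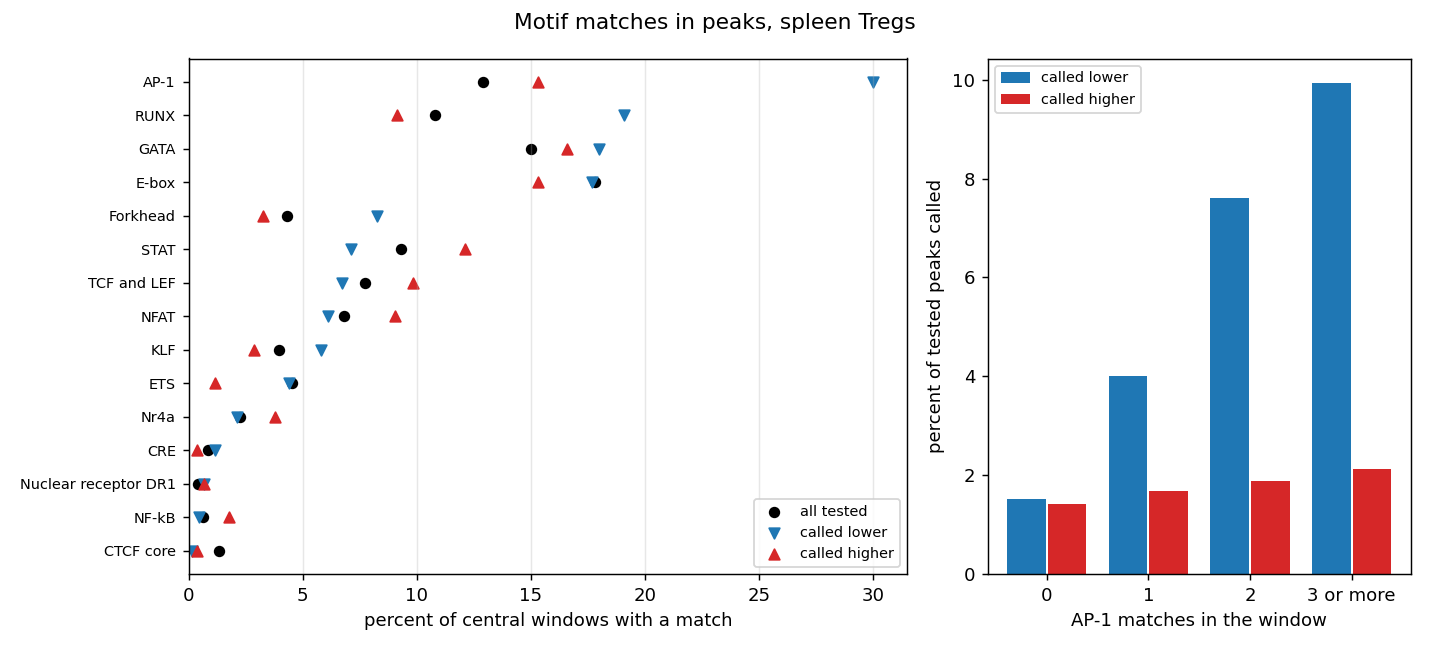
Left, percent of 300-base windows around peak centres with a match to each of 15 motifs among all tested (circles), lower (triangles down) and higher (triangles up) peaks; right, percent of tested peaks called by the number of AP-1 matches. The lower share climbs from 1.53% with no AP-1 match to 9.93% with 3 or more.

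The genes that the study discusses were read next, counting tested peaks that touch the gene or its 10-kb flanks. Pik3c3 itself had 5 peaks and none was called, by edgeR's quasi-likelihood test or by DESeq2, nor did any have an unadjusted p below 0.05. Its promoter peak held 62.8 and 61.9 CPM in controls against 67.2, 65.8, 62.2 and 64.0 CPM in deficient libraries, and none of the 5 peaks was centred in a coding exon, so these counts do not check the deletion. At Foxp3, the lineage factor, none of 12 peaks was called by either tool, with 0 at an unadjusted p below 0.05, and the one nearest to its start held 60.1 and 64.0 CPM against 51.4, 59.0, 63.2 and 63.6 CPM. Over all tested peaks 1.9% were lower and 1.45% higher, so 0 calls among 5 or 12 peaks is no result about these genes. Among genes of effector Tregs, Klrg1 had 5 lower peaks of 8, Il10 4 of 4 and Pparg 5 of 7. Tigit had 2 of 6 and Il1rl1 1 of 8, and none of these genes had a higher peak. DESeq2 called 5, 4, 3, 3 and 1 lower at these genes, in the same order.

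Klrg1 encodes a cadherin receptor of terminally differentiated effector cells. Its lower peak with the smallest p lay 20.1 kb from the start, beyond the end of the gene (chr6:122262463-122263122), and held 14.3 and 15 CPM in controls against 3.19, 4.9, 3.72 and 4.15 CPM, a log2 fold change of -1.88 (SE 0.182; adjusted p = 1.19e-07 by edgeR's quasi-likelihood test). Every deficient library lay below both controls at each of the 5 called peaks of this gene, as they did at 99.6% of all lower peaks. The promoter peak was weak, with 1.53 and 2.39 CPM in controls against 0.278, 0.122, 0.442 and 0.715 CPM in deficient libraries, a log2 fold change of -2.31 (SE 0.539). It and the peak at 12.5 kb lost their calls when some libraries were left out, whereas the peaks 20.1, 13.5 and 6.71 kb from the start kept theirs. The peak at 6.71 kb had a larger fall than the first, with a log2 fold change of -2.28 (SE 0.32). The 3 peaks that were not called had log2 fold changes of -0.24, -0.26 and -0.70.

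At Il10 an intronic peak 1.82 kb from the start (chr1:131021475-131021855) held 10.7 and 12.4 CPM in controls against 3.33, 2.45, 3.8 and 3.57 CPM in deficient libraries. Its log2 fold change was -1.80 (SE 0.199; adjusted p = 1.07e-06 by edgeR's quasi-likelihood test). The other 3 within 10 kb had log2 fold changes of -0.61, -0.64 and -1.18 and each lost its call when some library was left out, and the upstream peak given above lies outside that distance. Lower peaks thus lay on both sides of the gene and within it, and no tested peak lay within 1 kb of its start.

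Pparg encodes a nuclear receptor of fatty acid metabolism that marks Tregs of fat and other tissues. An intronic peak (chr6:115432448-115432916) held 5.96 and 5.34 CPM in controls against 0.694, 0.612, 0.442 and 0.429 CPM in deficient libraries, a log2 fold change of -3.38 (SE 0.322; adjusted p = 9.8e-08 by edgeR's quasi-likelihood test). Its promoter peak went from 7.76 and 7.3 CPM to 4.58, 4.28, 3.45 and 3.57 CPM, with a smaller log2 fold change of -0.93 (SE 0.206). All 7 peaks of the gene had lower levels in every deficient library than in either control, a pattern seen at 13.5% of all tested peaks, and 5 were called against a background of 1.9%. Only the first of these calls stayed without each library in turn.

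Tigit, which encodes an inhibitory receptor of effector Tregs, had an intronic peak 2.43 kb from the start with 11.2 and 12 CPM in controls against 4.16, 4.04, 3.72 and 5.86 CPM in deficient libraries (log2 fold change -1.39, SE 0.193). Its promoter peak was far more open, at 48.9 and 57.4 CPM against 39.1, 37.1, 34.3 and 40.6 CPM. The log2 fold change there was -0.49 (SE 0.0921; adjusted p = 0.00172 by edgeR's quasi-likelihood test), just inside the limit of 0.5, and it was not called. Il1rl1 had 1 lower peak 2.09 kb from its start, at 2.89 and 4.63 CPM against 1.67, 1.59, 1.33 and 1.72 CPM, and this call was lost when some library was left out, as were that of the second Tigit peak and both calls of Ccr7. At its promoter the level was 2.98 and 3.09 CPM against 2.64, 2.08, 2.21 and 2.72 CPM, with a log2 fold change of -0.34 (SE 0.284) that was not called.

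Genes of resting Tregs were read in the same way. Ccr7, the chemokine receptor that guides T cells to lymph nodes, had 2 higher peaks of 10. One lay 5.86 kb from the start (chr11:99160746-99161125), at 2.35 and 2.11 CPM in controls against 3.4, 4.16, 4.78 and 8.43 CPM in deficient libraries, a log2 fold change of 1.2 (SE 0.302; adjusted p = 0.0206 by edgeR's quasi-likelihood test). The other covered the coding exon at the end of the gene (chr11:99144499-99146085) and rested largely on a single library. It held 7.85 and 8.57 CPM in controls, 14.3, 12.8 and 12.9 CPM in deficient libraries 1 to 3 and 202.0 CPM in deficient library 4. The log2 fold change of 2.87 (SE 0.733) became 0.70 without that library, and DESeq2 gave this peak no adjusted p. Ccr7's promoter peak, at 29.6 and 35.7 CPM against 35.0, 39.6, 37.7 and 48.2 CPM, was not called. None of the 11 peaks of Tcf7, a factor of resting and stem-like T cells, was called by edgeR's quasi-likelihood test or DESeq2, 1 had an unadjusted p below 0.05, and their log2 fold changes ran from -0.59 to 0.70.

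**Figure D4:**
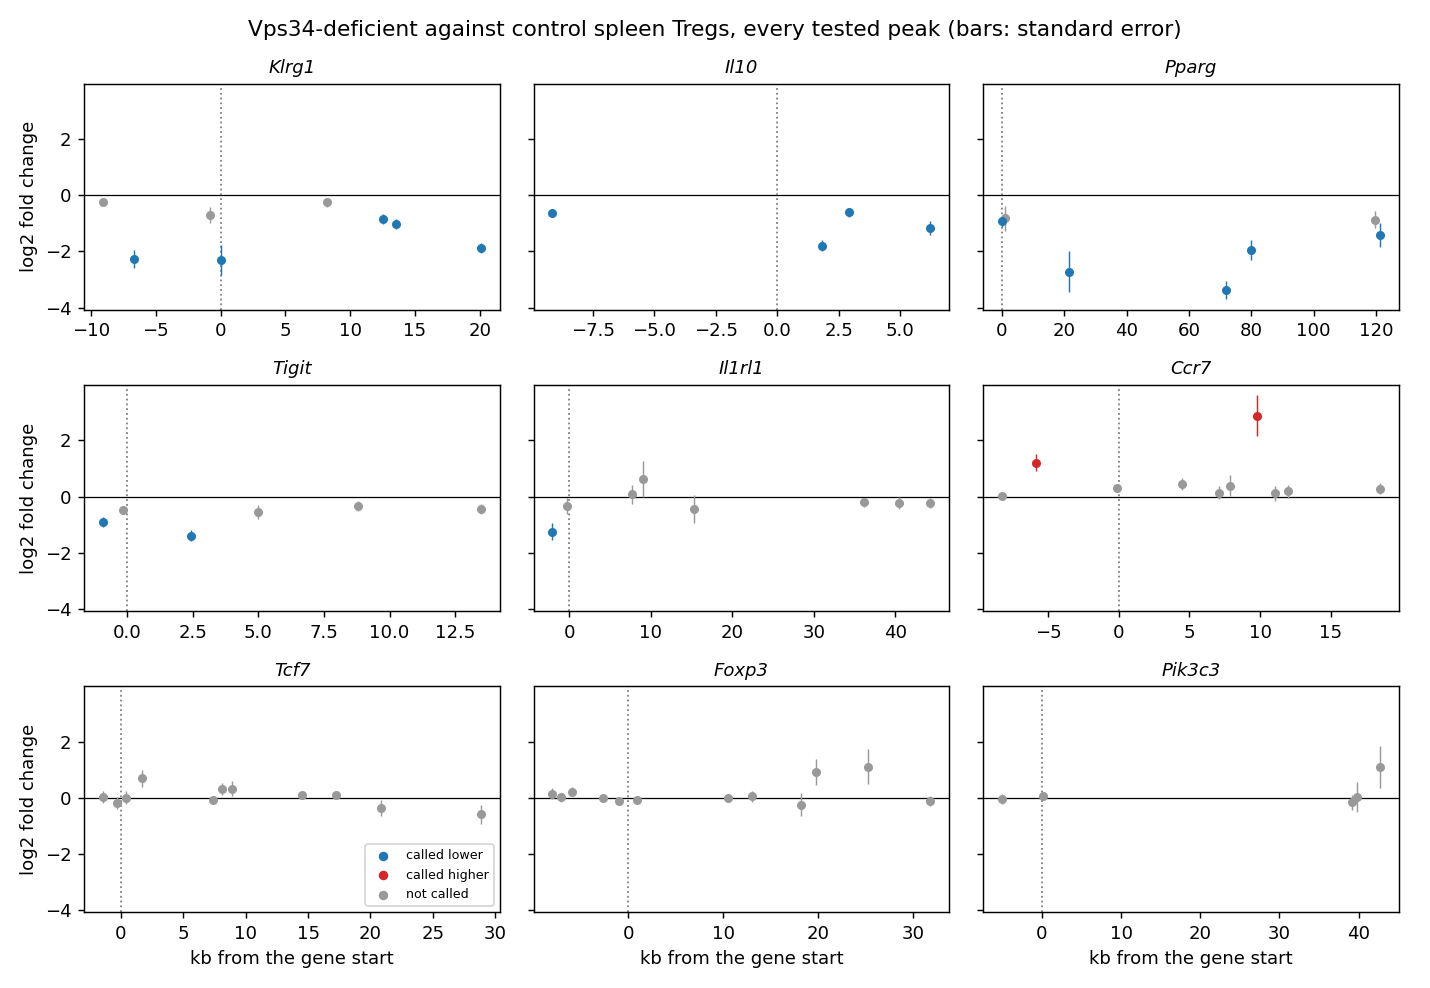
Log2 fold change (Vps34-deficient against control spleen Tregs, bars standard error) of every tested peak in 9 genes or within 10 kb of them, against distance in kb from the gene start. Klrg1, Il10, Pparg and Tigit have called peaks that are all lower, and Tcf7, Foxp3 and Pik3c3 have none called.

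Gene lists extended these readings, and each is set against the share over all tested peaks, 1.9% lower and 1.45% higher. The effector and tissue Treg list of 28 genes had 252 peaks, of which 21 (8.33%) were lower, against 1.9% of all tested peaks, and 1 (0.397%) higher, against 1.45%. The lower peaks belonged to 9 of its genes, which were the 5 above with Nfil3, Gzmb, Fgl2 and Cxcr6. The last 4 had 1 lower peak each, so most of the lower peaks came from the 5 genes that the study names. Among the peaks of the other genes the lower share was not above that of all tested peaks. The list's median log2 fold change was -0.06 against 0.02 over all tested peaks. At an unadjusted p below 0.05 the list had 42 lower and 12 higher of its 252 peaks, where 8.18% of all tested peaks were lower and 9.44% higher. At that limit its lower share thus lay above that of all peaks and its higher share below. The list holds the genes that the study names, which it discussed from its own samples, and is not independent of them. Members without a lower peak within 10 kb included the transcription factor genes Gata3, Batf, Prdm1, Maf and Irf4, and Icos, of which Maf and Icos had one within 50 kb, whereas Pparg and Nfil3 also encode transcription factors.

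The resting and central list of 20 genes had 447 peaks with 8 (1.79%) higher, close to the background of 1.45%, and 0 lower within 10 kb by edgeR's quasi-likelihood test or DESeq2. At an unadjusted p below 0.05 the list had 69 higher and 16 lower of its 447 peaks, where 9.44% of all tested peaks were higher and 8.18% lower. At that limit its higher share thus lay above that of all peaks and its lower share below. Its median log2 fold change was 0.15. The higher peaks belonged to Ccr7, Foxp1, Bcl2, Bach2 and Ets1. Foxp1, a forkhead factor of resting T cells, had 3 higher of 103, with log2 fold changes of 0.57 to 1.18. The one with the smallest p, in an intron, was at 27.2 and 27.2 CPM in controls against 38.6, 40.9, 35.7 and 46.2 CPM in deficient libraries (log2 fold change 0.57, SE 0.104). Bcl2, the survival factor, had an intronic peak at 3.61 and 3.93 CPM against 8.33, 6.0, 7.34 and 7.29 CPM, with a log2 fold change of 0.94 (SE 0.213). Bach2, a repressor of effector programmes, had an intronic peak at 15.1 and 15.3 CPM against 17.8, 21.4, 23.4 and 25.6 CPM. The named calls of this list were each lost in at least 1 of the fits with a library left out.

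T helper factors and cytokines had 8 lower peaks of 74 (10.8%, against 1.9% of all tested peaks) and 0 higher (against 1.45%) by edgeR's quasi-likelihood test or DESeq2. At an unadjusted p below 0.05, 5 of the 74 were higher, where 9.44% of all tested peaks were. The lower peaks belonged to Il17a, Ifng, Tbx21, Stat4, Eomes and Il2. Ifng, the Th1 cytokine, had a peak 132 bases from its start at 4.42 and 7.44 CPM in controls against 1.11, 1.22, 0.708 and 2.0 CPM in deficient libraries, a log2 fold change of -2.26 (SE 0.318; adjusted p = 4.57e-05 by edgeR's quasi-likelihood test). Tbx21, which encodes the Th1 factor T-bet, had an intronic peak at 2.8 and 3.93 CPM against 0.416, 0.979, 0.442 and 0.286 CPM, and its log2 fold change was -2.63 (SE 0.415). At Stat4, which transmits IL-12 signals, an intronic peak went from 11.1 and 11.4 CPM to 4.72, 5.75, 6.02 and 6.0 CPM.

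Chemokine receptor and homing genes had 12 of 165 peaks lower (7.27%, against 1.9% of all tested peaks) and 2 higher (1.21%, near the background of 1.45%). Integrin genes held 9 of the 12. Itga1, which encodes a collagen receptor subunit of tissue T cells, had 4 lower peaks of 13, Itga2, its relative, 3 of 16, and Itgav 2 of 12. The other integrin genes of the list, Itga4, Itgal, Itgam, Itgb1, Itgb2 and Itgb7, had no called peak. The Itga2 peak with the smallest p went from 10.0 and 8.15 CPM to 3.05, 3.3, 2.57 and 2.86 CPM (log2 fold change -1.64, SE 0.208). The start of S1pr4, which encodes a receptor for sphingosine 1-phosphate, was the nearest to a lower peak at 8.1 kb, which lies outside that gene in an intron of Gna15, the gene of a G protein subunit. Levels there were high in both groups, 56.5 and 59.9 CPM against 35.7, 37.2, 40.9 and 37.3 CPM, a log2 fold change of -0.62 (SE 0.0857; adjusted p = 3.3e-05 by edgeR's quasi-likelihood test). Cxcr3, a Th1-type chemokine receptor, had 1 lower peak of 3, while Cxcr5 had 1 higher peak, whose nearest start was that of Bcl9l.

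Vps34 complex and autophagy genes had 7 lower peaks of 185 (3.78%, against 1.9% of all tested peaks) and 1 higher (0.541%, against 1.45%), at Ambra1. The lower peaks lay at Uvrag, Ulk1, Atg5, Atg7, Atg10 and Map1lc3a. An intronic peak of Atg10, whose product helps conjugate Atg12, went from 26.9 and 36.5 CPM to 14.4, 14.7, 15.1 and 14.0 CPM, with a log2 fold change of -1.11 (SE 0.128; adjusted p = 1.77e-06 by edgeR's quasi-likelihood test). In Uvrag, whose product joins Vps34 on endosomes, an intronic peak 91.1 kb from the nearest start went from 5.32 and 4.35 CPM to 1.25, 1.1, 1.24 and 2.14 CPM. The median over the list was -0.06. Class I PI3K and mTOR genes had 4 lower peaks of 226 (1.77%), near the background of 1.9%, at Pik3ca, Pik3r5, Inpp5d and Phlpp1.

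Treg identity genes had 4 lower (2.04%) and 2 higher (1.02%) peaks of 196, near or below the background of 1.9% and 1.45%. Ikzf2, which encodes Helios, had 2 lower and 1 higher of 51. Lrrc32, which encodes the TGF-beta docking receptor GARP, had an intronic peak at 14.4 and 16.6 CPM against 10.6, 9.61, 11.4 and 8.51 CPM (log2 fold change -0.62, SE 0.158), and Izumo1r, a folate receptor family gene of Tregs, had 1 lower of 9. Itgb8, whose integrin activates TGF-beta, had 1 higher peak at 4.42 and 3.93 CPM against 6.94, 8.57, 7.7 and 6.86 CPM.

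Several other lists had few calls. The list of AP-1 factor genes had 1 higher peak of 80 (1.25%), 5.7 kb from the start of Fos, near a background of 1.45%. It had 0 lower by edgeR's quasi-likelihood test or DESeq2, where 1.9% of all tested peaks were lower. At an unadjusted p below 0.05, 7 of the 80 were lower, where 8.18% of all tested peaks were. The NF-kB list had 1 higher of 134 (0.746%), in Nfkb1, at 5.96 and 6.18 CPM against 11.2, 9.18, 10.0 and 10.6 CPM. Receptor-induced factors had 3 higher (1.7%) and 5 lower (2.84%) of 176, with Nr4a1 and Nr4a3 higher and Tox lower. Nfatc1, a mediator of calcium signals, held 3 of the lower and 1 of the higher peaks. Coinhibitory and costimulatory receptors had 2 lower (1.24%) and 1 higher (0.621%) of 161, and cell cycle genes 2 (1.8%) and 1 (0.901%) of 111. Cholesterol and fatty acid synthesis genes had 2 lower of 89 (2.25%), and interferon response genes 1 higher of 85 (1.18%). The shares of these 4 lists lay near or below the background of 1.9% lower and 1.45% higher. The IL-1 family receptor cluster beside Il1rl1 had 0 called of 29 by edgeR's quasi-likelihood test or DESeq2. At an unadjusted p below 0.05, 4 of the 29 were higher, where 9.44% of all tested peaks were.

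The distance within which peaks were counted moved some of these values. The lower share of the effector and tissue list was 7.92% within 2 kb and 7.91% within 50 kb. That of T helper genes was 7.69% and 6.82%, and that of homing genes 7.63% and 5.9%. T helper genes thus came first at 10 kb and the effector and tissue list at the other distances. At 10 kb most lower peaks of the latter lay at Klrg1, Il10, Pparg, Tigit and Il1rl1, so its share there describes mainly those genes. Within 50 kb the resting and central list had 11 higher (1.62%) and 5 lower (0.735%) peaks of 680, the lower ones at Tcf7, Cd27, Ets1 and Ccr9. The IL-1 family receptor cluster then had 3 higher and 3 lower of 53 (5.66% each). For Vps34 complex and autophagy genes the lower share was 3.36% within 2 kb and 2.73% within 50 kb.

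**Figure D5:**
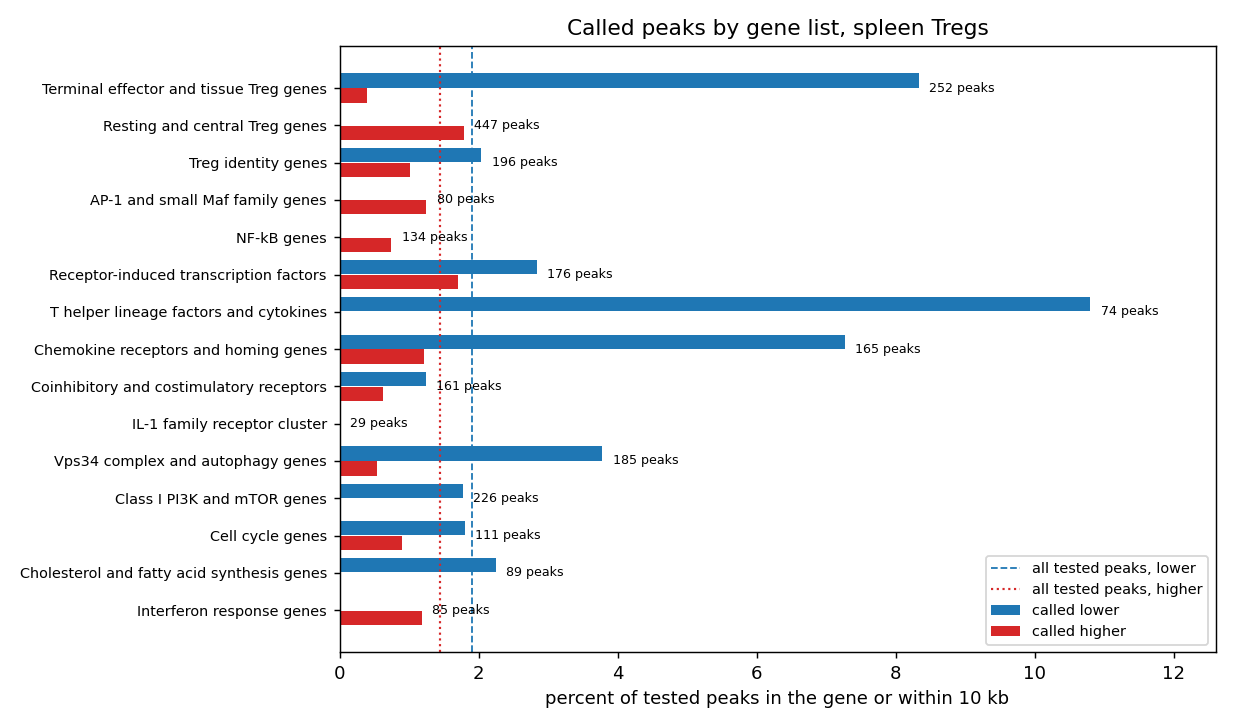
Percent of tested peaks called lower or higher in each of 15 gene lists, counting peaks in a gene or within 10 kb, with dashed and dotted lines at the shares over all tested peaks, 1.9% lower and 1.45% higher. T helper genes (10.8%), effector and tissue Treg genes (8.33%) and homing genes (7.27%) have the highest lower shares at this distance. Most lower peaks of the effector and tissue list lie at genes that the study names.

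By gene, 17522 protein-coding genes had a tested peak in or within 10 kb, of which 1157 had a lower peak, 875 a higher peak and 103 both. At 61 genes 3 or more lower peaks were found and at 14 genes 3 or more higher peaks. Atxn1, which encodes the transcriptional regulator ataxin-1, had 8 lower of 47 and none higher, with log2 fold changes from -3.55 to -0.92. Its strongest peak, in an intron (chr13:45917221-45917691), went from 8.35 and 9.97 CPM to 1.67, 0.979, 0.31 and 0.286 CPM. Rapgef5, which encodes an exchange factor for Rap proteins, had 7 lower of 23 and none higher, while Wwox had 6 lower and 1 higher of 66 and Nav2 6 lower and 2 higher of 56. Sgms1, which encodes a sphingomyelin synthase, was tied with both at 6 lower of 50 and had none higher. The gene model Gm20388 (chr8:119910841-124345722), which spans many other genes, had 22 lower and 4 higher of 405. Ncald, which encodes a neuronal calcium sensor, had 4 higher of 21 and none lower, that with the smallest p at 0.361 and 0.562 CPM against 2.36, 1.1, 4.25 and 2.29 CPM. Ttc28 had 4 higher and 1 lower of 50, and Fgfr2, whose gene model here (chr7:130162451-133123350) also covers neighbours, 4 higher and 1 lower of 170. Fgfr2 and Gm20388 span the most peaks of these genes, and over all tested peaks 1.45% were higher and 1.9% lower.

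Finally, each spleen value was set beside lung, where 2 control and 2 Vps34-deficient libraries were read in a fit of all 10 libraries. In that fit, which shares its spread between tissues, 994 spleen peaks were lower and 428 higher. No peak was called for a difference of the Vps34 effect between spleen and lung by edgeR's quasi-likelihood test (0 of 97109, smallest adjusted p 0.16), while 7060 had an unadjusted p below 0.05, DESeq2 called 25, and 21 were called without lung control 1. The median log2 fold change of the lower spleen peaks was -1.12 in spleen and -1.33 in lung, and 98.9% of them had a negative value in lung, against 48.5% of all peaks. For the higher peaks the medians were 0.92 and 0.48, and 92.3% were positive in lung. Most of them are narrow, and all peaks of up to 250 bases had a median of 0.33 in lung, against -0.05 for wider peaks. The Klrg1 peak 20.1 kb from the start had a log2 fold change of -1.84 here and -3.39 in lung (unadjusted p of the difference 0.00022 and adjusted p 0.296 by edgeR's quasi-likelihood test), and the Il1rl1 promoter -0.30 and -2.51 (0.000491 and 0.352). The Nfkb1 peak was 0.79 in spleen and -0.89 in lung (2.6e-05 and 0.201), and the Dscam peak 1.02 and -0.20 (7.41e-05 and 0.208).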

How the data were processed

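Tregs were profiled by ATAC-seq, and the deposited table held raw counts, as whole numbers, for each peak in each library. Per the study's methods, the authors removed duplicates, corrected read ends for the Tn5 insertion site, kept nucleosome-free fragments, called peaks in each sample with MACS2 (version 2.1.0.20150603 in the submitters' processing notes), kept those seen in 50% or more of a genotype's replicates and counted reads with bedtools. Even values were 91.5% to 94.5% of a library's counts, so both mates were counted and the counts overstate independent fragments. The methods name an older mouse assembly and the processing notes GRCm38. On GRCm38 a peak covered 51.68% of 21755 gene starts, and 2.02% to 2.82% once positions were shifted, so that build and GENCODE vM21 were used.

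The 6 spleen libraries were fitted alone with edgeR 4.0.16 in R 4.3.3 (filterByExpr, TMM, quasi-likelihood test, Benjamini-Hochberg adjustment). The lung comparison used all 10 libraries. Standard errors are the fold change over the root of the F statistic. Each peak took the name of the nearest protein-coding start, and coordinates count from 1. Replicate pairs differed beyond counting noise (chi-square of 2.77 to 3.85 per degree of freedom, and 1.4 to 1.99 on halved counts), so each library counted once.

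Members, gene lists, markers and motifs were chosen with earlier results of these data known. Peaks were named by rule, which took the 10 smallest p in each direction among peaks whose groups did not overlap (1 per gene, leaving out peaks with at most 3 counts in every library of a group), the 5 genes with the most calls, the 9 genes of the study and up to 4 genes per list. Sequences under that rule came from the first 3 lower peaks and from the third higher peak, and some items are not reported here. Those of Il10, Pparg and Klrg1 were added after the values were seen. The procedure was tested on simulated data. Alternatives were other scalings, DESeq2 1.42.0, other filters and thresholds, halved counts, autosomes alone, a chromosome Y covariate, the replicate number as a block, and leaving out each library. Separate scaling by peak width and a fit on peaks over 250 bases were added after seeing the data.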

Additional observations from a re-analysis of the deposited data

Results flagged for a closer look

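At 5 of the 90 named peaks examined, 1 of the 4 Vps34-deficient spleen libraries stood apart from the other 3 by more than Dixon's 95% limit, and chance alone flags about 1 in 20 such groups. The widest gap was at the Ccr7 peak over the last coding exon, where 1 library held 202.0 CPM and the gap was 0.992 of the range. At the Tg peak the highest library held 3.0 CPM, at the Uvrag peak 2.14 CPM and at the Srebf2 peak, an intronic peak nearest to Shisa8, 1.22 CPM. At the Hilpda peak the lowest library held 4.29 CPM. Apart from Ccr7, these libraries stayed below both controls.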

How the results depend on the processing

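The count of higher peaks (1370) was 428 with all 10 libraries in the fit, 122 at an adjusted p below 0.01 and a fold change above 2, 718 over peaks wider than 250 bases and 752 with scaling within peak width classes. Leaving out 1 library gave 180 to 2396. The count of lower peaks (1798) was 994 with all 10 libraries and 649 at the stricter thresholds, and 765 to 1663 with a library left out. The share of lower peaks (56.8%) was 69.9% with all 10 libraries, 84.2% at the stricter thresholds, 67.6% over wider peaks and 70.7% with scaling within width classes, and it fell under 50% with library size scaling (47.7%), also in DESeq2 (49.6%). It ran from 41.0% without deficient 3 to 81.3% without control 1, with 44.3% without control 2. Other scalings, filters, halved counts, autosomes alone and the chromosome Y covariate kept both counts within 1.5 times. The cause of these shifts was not tested, beyond the fewer samples or peaks that some settings hold.

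The labels do not say whether samples with the same number share more than that number. Their deviations from the group means had correlations of -0.061 and -0.047. With 2 controls the deviations of one mirror those of the other, so these values cannot show whether such samples were paired. With the replicate block, which rests on replicates 1 and 2, 2192 peaks were higher and 1682 lower (a lower share of 43.4%). The count of peaks whose effect differed between spleen and lung, 0, was 25 in DESeq2, 0 with the replicate block and 0 to 21 with a library left out.

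Of the 84 called peaks that the naming rule took, some of them not described here, 36 kept their call in all the alternatives that could be fitted, and none changed sign. Motif shares over peaks of at least 300 bases were added after seeing the data. Depth limits the low peaks, where a control level under 1 CPM rests on few fragments. With 2 controls, each carries much of the result.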
